A study of Rattus norvegicus with 10 samples.

Results

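The proteasome subunit genes of DMBA-induced rat mammary tumours were followed in the same 5 tumours before and after oral hydroxytyrosol. Members were the array rows with 1 gene symbol that starts with Psma, Psmb, Psmc, Psmd or Psme, without the immunoproteasome genes Psmb8, Psmb9 and Psmb10, and each gene was read from its brightest probe set. This gave 38 of the 14217 genes with a row of their own. Of these, 36 encode parts of the proteasome or proteins that bind it: 13 of the core particle (7 of the alpha ring and 6 of the beta ring), 17 of the regulatory cap, 3 chaperones of the cap's base and 3 activators. Psmc3ip, whose product acts in meiotic recombination, and Psme3ip1, whose product binds the activator encoded by Psme3, met the symbol rule, are named here, and stayed out of the group summaries. Psmb6 and Psme3 had only probe sets shared with another symbol and were not analysed here.

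The final samples came from female Sprague-Dawley rats of 19 weeks, at sacrifice in the 7th week after the biopsy and after hydroxytyrosol, a phenol of olive oil, given by gavage over 6 weeks (0.5 mg/kg, 5 days each week). The basal samples were Trucut needle biopsies of the same tumours at 12 weeks of age, at a tumour volume of 2 cm3, with no treatment. Every tumour had been induced by 1 oral dose of 100 mg/kg of the carcinogen DMBA, and all were of Bloom-Richardson grade II. The tumours are called 45D3, 49I1, 51I1, 66D2 and 67D3, with 1 array of each group per tumour, and lists of 5 values keep that order. Later tumours without hydroxytyrosol were not analysed here, and the labels name a whole tumour where the design text names a needle piece, so treatment, age, growth and way of sampling cannot be told apart. The labels do not say whether the tumours grew in separate rats, so the p-values measure the spread of the final minus basal differences over these tumours.

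The proteasome is the protease that takes apart proteins tagged with ubiquitin. Its core particle is a barrel of outer alpha rings, which gate the entrance, and inner beta rings, which hold the cutting sites. The cap that binds its ends has a base, whose ATPase ring unfolds the substrate and feeds it in, and a lid, which removes the ubiquitin chain. Other activators open the same gate without ATP. Fast-growing and secretory cells, tumours among them, rely on the proteasome for the turnover of cell cycle regulators and of misfolded proteins, and when it is inhibited the transcription factor encoded by Nfe2l1 raises the genes of its subunits together.

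Of the 10 arrays, the biopsy of 45D3 stood apart. Its GAPDH control signal was 12.29 on the log2 scale, against 12.90 to 13.32 in the other 9 arrays. The difference between the 3′ and 5′ hexokinase probe sets, which widens when RNA is degraded or incompletely copied, was 0.89 to 1.10 in final arrays and 0.97 to 2.36 in basal arrays, highest in the biopsies of 45D3 (2.36) and 67D3 (2.03). Array medians over the 18625 tested probe sets ran from 7.75 to 7.80 in final and from 7.67 to 7.79 in basal arrays. Markers of luminal epithelium were present in both groups: 8 of 10 were measured and 0 had a group mean under the dim cutoff of 5.14. The log2 of their summed signal was 14.91 to 15.32 in final and 14.83 to 15.36 in basal arrays. Their median difference, final minus basal, was 0.14, 0.01, -0.32, 0.14 and 0.26 in the 5 tumours. Of the 8 markers 6, 5, 0, 7 and 7 were higher, where 54.2%, 42.7%, 40.8%, 53.8% and 47.2% of all genes were. The final array of 45D3 was also the 1 of the 5 that did not correlate best with its own biopsy across probe sets (r = -0.16). Medians of the proteasome groups and the differences of the genes described array by array are given with and without 45D3.

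The mean differences of the proteasome genes between final and basal samples were small and had no common sign. The median difference, final minus basal on the log2 scale, was -0.02 over the 13 core genes, -0.01 over the 17 cap genes, 0.03 over the 3 activators and 0.03 over the 3 base chaperones, beside -0.01 over all 10839 genes tested. Without 45D3 these medians were -0.11, -0.11, -0.02 and -0.11, beside -0.03 over all genes. Single genes ran from -0.19 (Psmd1) to 0.18 (Psmc3), and 20 of the 36 were lower in final samples (55.6%, where 52.1% of all genes were). With limma's paired fit 0 of the 36 passed an adjusted p of 0.05, where 0% of all genes did, and their adjusted p-values ran from 0.657 to 0.998. At an unadjusted p under 0.05, 0 members were lower and 0 higher, where 4.36% of all genes were lower and 2.78% were higher. The 95% interval of a member reached between 0.21 and 0.38 to either side of its difference. The adjusted threshold is stricter than this interval: over all genes the smallest limma p, 3.8e-05, had an adjusted p of 0.413. With 5 tumours, changes larger than these widths could thus also go undetected. The 38 genes all passed the filter on dim probe sets, and 37 had a mean above that of the BioB spike-in (7.97), the exception being Psmc3ip (7.47). In bulk samples fewer cells of a type and less RNA per cell cannot be told apart.

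Within single tumours, most members shared a sign. In 45D3, 34 of the 36 were higher in the final sample (94.4%, where 54.2% of all genes were), with a median difference of 0.39. In 49I1, 35 of the 36 were lower, with a median of -0.19, and in 51I1 likewise 35 of 36, with a median of -0.18, where 42.7% and 40.8% of all genes were higher in those tumours. In 66D2 and in 67D3, 14 of the 36 were higher, with medians of -0.05 and -0.02 (38.9% in each, where 53.8% of all genes were higher in 66D2 and 47.2% in 67D3). Over all genes these medians lay between -0.08 (51I1) and 0.04 (45D3). The means near 0 thus combine 1 tumour with differences of up to 0.64 upward (Psmd8), 2 in which 35 of 36 were downward and 2 in which 22 of 36 were. Genes of 1 array share its RNA, so the 36 values of a tumour are not independent of each other.

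**Figure D1:**
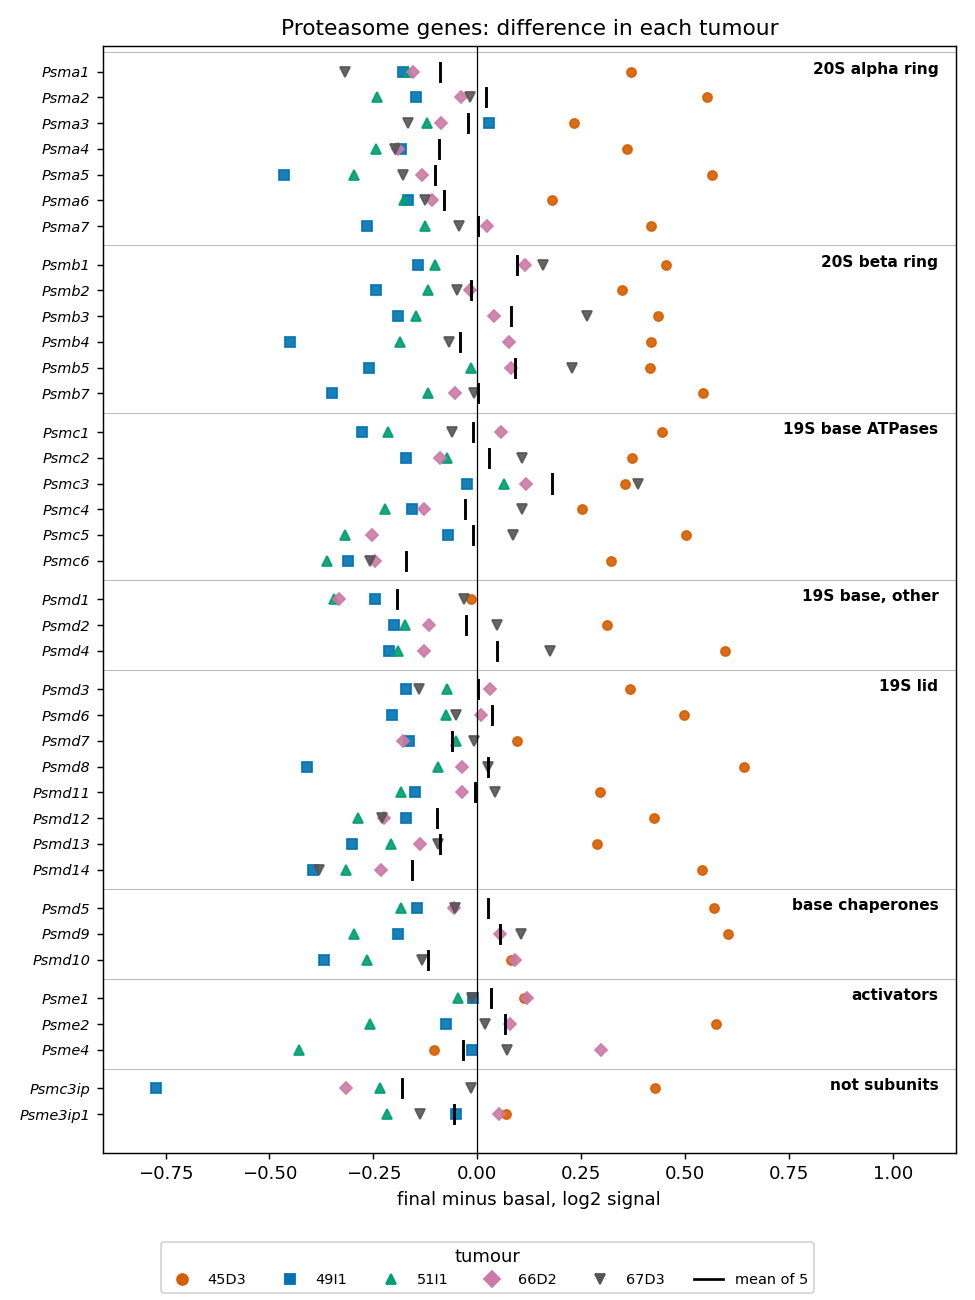
Final minus basal log2 signal of the 38 genes in each of the 5 tumours (symbols) with the mean of 5 (black bars), grouped by role. The circles of 45D3 lie to the right of 0 for 34 of the 36 genes that encode proteasome proteins and their binding partners, and the squares of 49I1 and triangles of 51I1 to the left for 35 each.

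Without 45D3, 32 of the 36 members were lower in the fit, where 5972 of all 10839 genes were. Of the members 14 were lower in all 4 remaining tumours (38.9%, where 18.4% of all genes were). In all 4, 0 members were higher, where 11.9% of all genes were. With all 5 tumours, 1 member, Psmd1, was lower in every tumour, where 5.27% of all genes were, and 0 were higher in every tumour, where 3.52% were. In the fit without 45D3, 4 of the 36 members had an unadjusted p under 0.05, all lower. They were Psma5 (-0.27), Psmc6 (-0.29), Psmd12 (-0.23) and Psmd14 (-0.33). This share is near that of all genes (10.7% lower at that level), so it is not a trait of the members. The direction of Psmd14 also depended on the probe set, as given below. No member passed the adjusted threshold (lowest limma adjusted p = 0.178, where 0% of all genes passed). The count of members lower depended on other tumours too: it was 13 without 49I1, 12 without 51I1, 20 without 66D2 and 18 without 67D3. For these fits the share of all genes that were lower was not counted.

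The opposite sign in 45D3 came with a low biopsy and a high final array. The biopsy array of 45D3 held the lowest of the 10 signals for 24 of the 36 members (66.7%, where it did for 10.4% of all genes). The final array of 45D3 held the highest of the 5 final signals for 25 of the 36 (69.4%, where it did for 24.5% of all genes). The median deviation of the 36 genes from their own mean over the 10 arrays was 0.14, -0.06, -0.04, 0.08 and -0.20 in the final arrays, against -0.26, 0.16, 0.15, 0.13 and -0.16 in the basal arrays. Both biopsies with a wide hexokinase difference, of 45D3 and 67D3, thus lay below the mean, and the other 3 biopsies above it. The final array of 67D3 lay equally low (-0.20) at a hexokinase difference of 1.01, and it held the most skeletal muscle signal (list median 11.98, against 4.42 to 9.06 in the other 4 final arrays). With the hexokinase difference as a covariate beside the tumour, 33 of 36 members were lower, where 6031 of all 10839 genes were. The members' median was -0.17 where that of all genes was -0.04. In that fit 1 member, Psmd1, had an unadjusted p under 0.05 (6.70% of all genes were lower at that level). With the median of the skeletal muscle markers as a covariate, 10 of 36 members were lower. The median of all genes was -0.01 in that fit, and their share lower was not counted. The part of RNA quality and of muscle in the members' values was not tested beyond these fits.

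**Figure D2:**
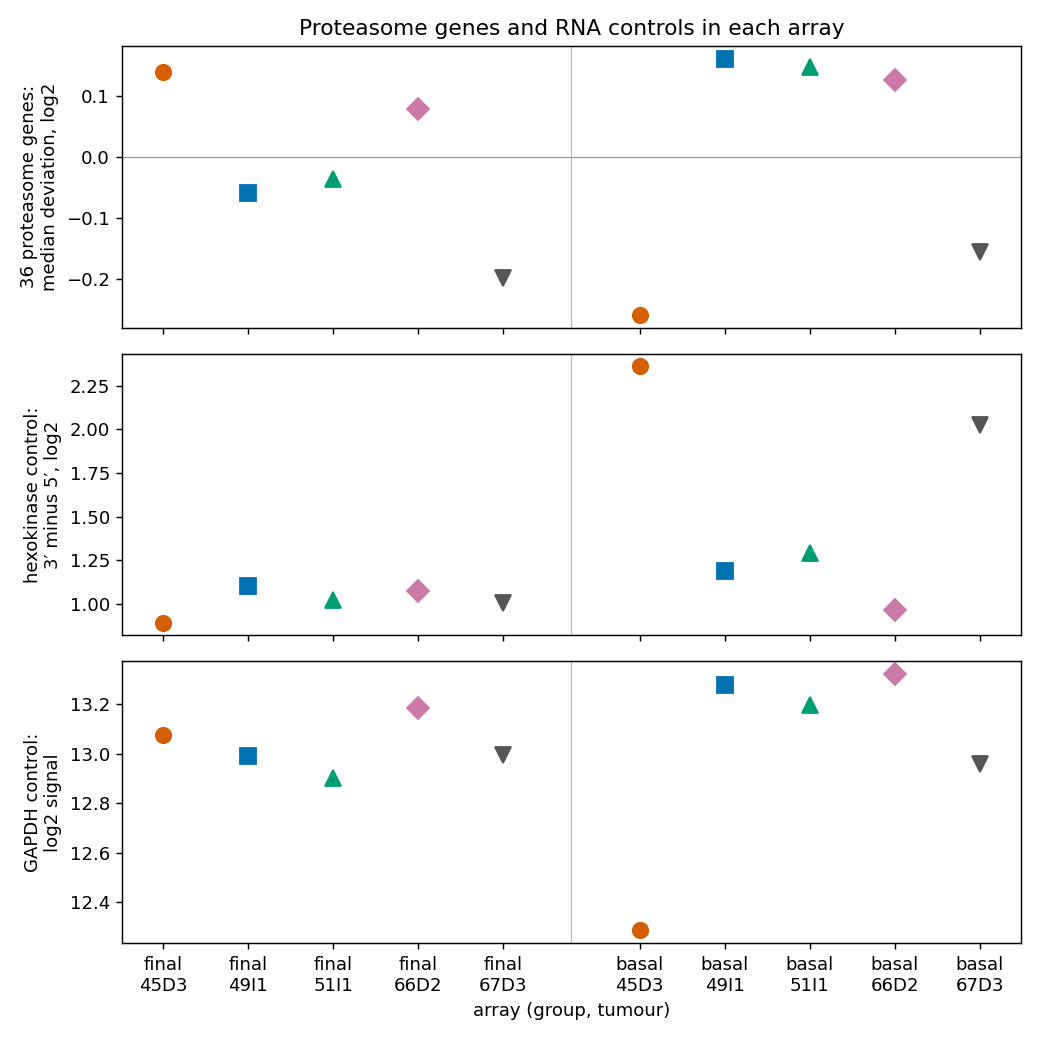
Each of the 10 arrays, final at the left and basal at the right, with the median log2 deviation of the 36 proteasome genes from their means (top), the hexokinase 3′ minus 5′ difference (middle) and the GAPDH control signal (bottom). The biopsy of 45D3 is lowest in the top panel (-0.26), highest in the middle panel (2.36) and lowest in the bottom panel (12.29).

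The promoters of the members were also searched for common letters. RefSeq windows of 250 bases before to 50 after the gene's start (GRCr8 assembly) were found for 34 of the 38 members and not for Psma7, Psmd6, Psmd12 and Psmd14. Without Psmc3ip and Psme3ip1, 32 were searched. These motifs were chosen after the expression values were seen and were searched on both strands. CCGGAAG, the core of sites for ETS factors, stood in 11 of the 32 (34.4%) and in 8.75% of all 33469 windows, and GGGCGG, the GC box, in 23 (71.9%) and in 33.1%. ATGGCG, the core of YY1 sites, stood in 9 (28.1%) and in 9.98%, and CCAAT in 16 (50%) and in 37.5%. TGACNNNGC, a core of the antioxidant response element read by the factors encoded by Nfe2l1 and Nfe2l2, stood in 7 (21.9%) and in 12.1%, and TATAAA in 4 (12.5%) and in 14.2%. Some matches overlap: the TGACNNNGC match of Psmb2 shares bases with a CCAAT and a GC box, and the CCGGAAG match of Psme4 shares bases with a GC box. The 33469 windows were not matched to the members for base composition or level of expression, so the shares cannot be read as a trait of proteasome genes. A match is a description of these letters, not a binding site, and binding was not measured here. Whether the matches bear on the shared sign within a tumour was not tested. The windows of 5 genes described array by array are printed beside their values, with the matches in capitals, reverse complements included: CCGGAAG in Psma6 and Psmb7, and TGACNNNGC in Psmb5, Psmd1 and Psme4.

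The alpha ring genes, whose products form the gate of the core, had a median difference of -0.08, with 5 of 7 lower. Psma6 had the smallest p of the ring, and its signals were 12.23, 12.12, 12.14, 12.19 and 12.10 in the final arrays, against 12.05, 12.29, 12.32, 12.30 and 12.22 in the basal arrays. In 4 of 5 tumours its final signal was the lower one, by 0.11 to 0.18, and the groups overlapped: the biopsy of 45D3 was the lowest of the 10 signals, and the final signal of 45D3 lay just above the biopsy of 67D3. It averaged 12.16 ± 0.05 in final and 12.24 ± 0.11 in basal arrays (SD, n = 5 each), a difference of -0.08 (SE 0.10, 95% interval -0.31 to 0.15, limma adjusted p = 0.845), and -0.14 without 45D3. Psma1 (-0.09), Psma4 (-0.09) and Psma5 (-0.10) were likewise lower in 4 of 5 tumours, and Psma3 (-0.02) in 3. Psma2 (0.02) and Psma7 (0.00) had means near 0 though their final signal was lower in 4 and 3 tumours. Without 45D3 all 7 alpha genes were lower, with a median of -0.14. The Psma6 promoter holds 2 CCGGAAG matches, which begin 43 and 24 bases before the start.
Psma6, chr6:78514097-78514396, strand +: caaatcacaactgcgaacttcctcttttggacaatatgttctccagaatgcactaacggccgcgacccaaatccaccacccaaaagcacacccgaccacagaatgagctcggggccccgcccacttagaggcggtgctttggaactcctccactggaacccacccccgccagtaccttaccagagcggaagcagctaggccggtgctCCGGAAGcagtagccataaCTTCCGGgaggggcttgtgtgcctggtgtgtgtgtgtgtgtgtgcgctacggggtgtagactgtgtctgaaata

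The beta ring holds the proteolytic sites, and its 6 genes had a median difference of 0.04, with 2 lower. Without 45D3 the median was -0.06, with 4 lower. Psmb5, which encodes the subunit with chymotrypsin-like activity, had signals of 11.95, 11.77, 11.81, 11.96 and 11.90 in the final arrays, against 11.54, 12.03, 11.82, 11.88 and 11.67 in the basal arrays. Its final signals lay between 11.77 and 11.96, inside the range of the biopsies, which the biopsy of 45D3 opened at the low end and that of 49I1 at the high end. It averaged 11.88 ± 0.09 in final and 11.79 ± 0.19 in basal arrays (SD, n = 5 each), a difference of 0.09 (SE 0.12, 95% interval -0.20 to 0.38, limma adjusted p = 0.858), and 0.01 without 45D3. Psmb7, which encodes the trypsin-like subunit, had signals of 10.94, 10.68, 10.83, 11.09 and 10.47 in the final arrays, against 10.40, 11.03, 10.95, 11.15 and 10.48 in the basal arrays. The lowest final signal was that of 67D3 and the lowest basal one that of 45D3. In 4 tumours it was lower by 0.01 to 0.35, while in 45D3 it was higher by 0.54. The difference was 0.00 (SE 0.14, 95% interval -0.33 to 0.34, limma adjusted p = 0.998), and -0.13 without 45D3. The promoter of Psmb5 holds a TGACNNNGC match 60 bases before the start, and that of Psmb7 holds 2 CCGGAAG matches, 54 and 15 bases before it.
Psmb5, chr15:32047330-32047629, strand -: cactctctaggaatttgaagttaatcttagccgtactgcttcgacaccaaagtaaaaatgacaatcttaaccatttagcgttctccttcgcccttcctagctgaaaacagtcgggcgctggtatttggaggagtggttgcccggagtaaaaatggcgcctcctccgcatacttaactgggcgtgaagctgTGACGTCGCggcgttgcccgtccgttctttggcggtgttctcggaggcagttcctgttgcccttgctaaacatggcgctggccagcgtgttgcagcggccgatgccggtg
Psmb7, chr3:42827421-42827720, strand -: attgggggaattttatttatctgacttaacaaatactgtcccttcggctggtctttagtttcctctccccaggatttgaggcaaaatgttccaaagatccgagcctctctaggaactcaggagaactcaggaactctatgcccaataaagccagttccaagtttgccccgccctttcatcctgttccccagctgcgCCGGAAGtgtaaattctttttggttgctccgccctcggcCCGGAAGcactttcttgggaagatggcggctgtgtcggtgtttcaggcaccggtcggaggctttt

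Psmb1, a beta subunit without a cutting site, had the smallest p of the ring, with signals of 11.82, 11.63, 11.68, 11.85 and 11.60 in the final arrays, against 11.36, 11.77, 11.78, 11.74 and 11.44 in the basal arrays. It was higher in 45D3, 66D2 and 67D3 and lower in 49I1 and 51I1, and the groups overlapped. Its difference was 0.10 (SE 0.12, 95% interval -0.18 to 0.37, limma adjusted p = 0.845), and 0.0065 without 45D3. Of the other beta subunits without a cutting site, Psmb3 differed by 0.08, Psmb2 by -0.02 and Psmb4 by -0.04. The alpha median minus the beta median averaged -0.09 ± 0.12 over the 5 tumours (SD) and was below 0 in 4 of them, a gap smaller than its spread (-0.10 ± 0.14 without 45D3).

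The base of the cap turns ATP into unfolding. Its 6 ATPase genes had a median difference of -0.01, with 4 lower (-0.11 without 45D3, with 5 lower). Psmc3 had the largest positive difference of all members, with signals of 10.72, 10.68, 10.74, 10.90 and 10.77 in the final arrays, against 10.36, 10.70, 10.68, 10.79 and 10.38 in the basal arrays. It was higher in 4 of 5 tumours, by 0.39 in 67D3 and 0.36 in 45D3, 0.12 in 66D2 and 0.06 in 51I1, so the larger differences belong to the 2 tumours with the lowest biopsies. It averaged 10.76 ± 0.09 in final and 10.58 ± 0.20 in basal arrays (SD, n = 5 each), a difference of 0.18 (SE 0.10, 95% interval -0.07 to 0.43, limma adjusted p = 0.682), and 0.13 without 45D3. Psmc6, at the other end, differed by -0.17 and was lower in 4 tumours, by 0.25 to 0.36, while 45D3 was higher by 0.32. Other Psmc6 probe sets above the dim cutoff differed by -0.16 and -0.02, so the size of its difference depended on the probe set. Psmc1 (-0.01), Psmc2 (0.03), Psmc4 (-0.03) and Psmc5 (-0.01) lay close to 0.

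Psmd1 encodes a large scaffold protein of the base and was the 1 member lower in all 5 tumours. Its signals were 8.80, 8.85, 8.70, 8.75 and 8.95 in the final arrays, against 8.82, 9.10, 9.04, 9.08 and 8.98 in the basal arrays. The gap was 0.25 to 0.35 in 49I1, 51I1 and 66D2 but 0.01 in 45D3 and 0.03 in 67D3, and the groups overlapped. It averaged 8.810 ± 0.10 in final and 9.004 ± 0.11 in basal arrays (SD, n = 5 each), a difference of -0.19 (SE 0.10, 95% interval -0.43 to 0.04, limma adjusted p = 0.657), the smallest p of the 36 before adjustment (0.0928), and -0.24 without 45D3. Psmd2, the second scaffold of the base, differed by -0.03, and Psmd4, which encodes a receptor for ubiquitin chains, by 0.05. The Psmd1 promoter holds 2 TGACNNNGC matches, 165 bases before the start and at base 23 after it.
Psmd1, chr9:94157721-94158020, strand +: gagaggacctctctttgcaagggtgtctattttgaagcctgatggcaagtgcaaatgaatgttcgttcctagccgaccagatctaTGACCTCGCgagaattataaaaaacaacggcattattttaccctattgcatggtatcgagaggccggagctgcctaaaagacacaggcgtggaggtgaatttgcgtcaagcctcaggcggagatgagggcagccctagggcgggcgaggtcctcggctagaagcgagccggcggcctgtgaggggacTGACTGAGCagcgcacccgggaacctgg

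The lid genes had a median difference of -0.03, with 5 of 8 lower (-0.11 without 45D3, with all 8 lower). Psmd14 encodes the deubiquitinase that cuts the chain off the substrate. Its signals were 10.58, 10.30, 10.29, 10.37 and 9.99 in the final arrays, against 10.04, 10.69, 10.61, 10.60 and 10.37 in the basal arrays. In 4 tumours the final signal was lower by 0.23 to 0.40, and in 45D3 it was higher by 0.54. The difference was -0.16 (SE 0.16, 95% interval -0.54 to 0.23, limma adjusted p = 0.815). Without 45D3 it was -0.33, with 4 of 4 tumours lower (limma adjusted p = 0.178). Psmd14 also has other probe sets above the dim cutoff, and they differed by -0.02 and 0.18, so its direction depended on the probe set. Psmd7, the partner of Psmd14 in the lid, differed by -0.06 on the brightest probe set and by 0.06 on the other. Psmd12 (-0.10) and Psmd13 (-0.09) were lower in 4 tumours. The other structural lid genes Psmd3 (0.00), Psmd6 (0.04), Psmd8 (0.03) and Psmd11 (-0.01) lay near 0. Psmd11 differed by -0.08 on its other probe set above the dim cutoff.

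The core and the cap, which work together on a substrate, had close medians in each tumour. The core median minus the cap median was 0.05, 0.01, 0.04, 0.09 and -0.04 in the 5 tumours, a mean of 0.03 ± 0.05 (SD). Against the activators the core median differed by 0.30, -0.18, 0.11, -0.16 and -0.07, a mean of 0.00 ± 0.20 (SD), so the tumours disagreed in sign and the spread covered the mean (-0.07 ± 0.13 without 45D3). In 45D3 the activators' median difference was 0.11, against 0.42 for the core and 0.37 for the cap. In 49I1 it was -0.01, against -0.19 for the core and -0.20 for the cap. These are medians over 3 activator genes and carry no test.

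**Figure D3:**
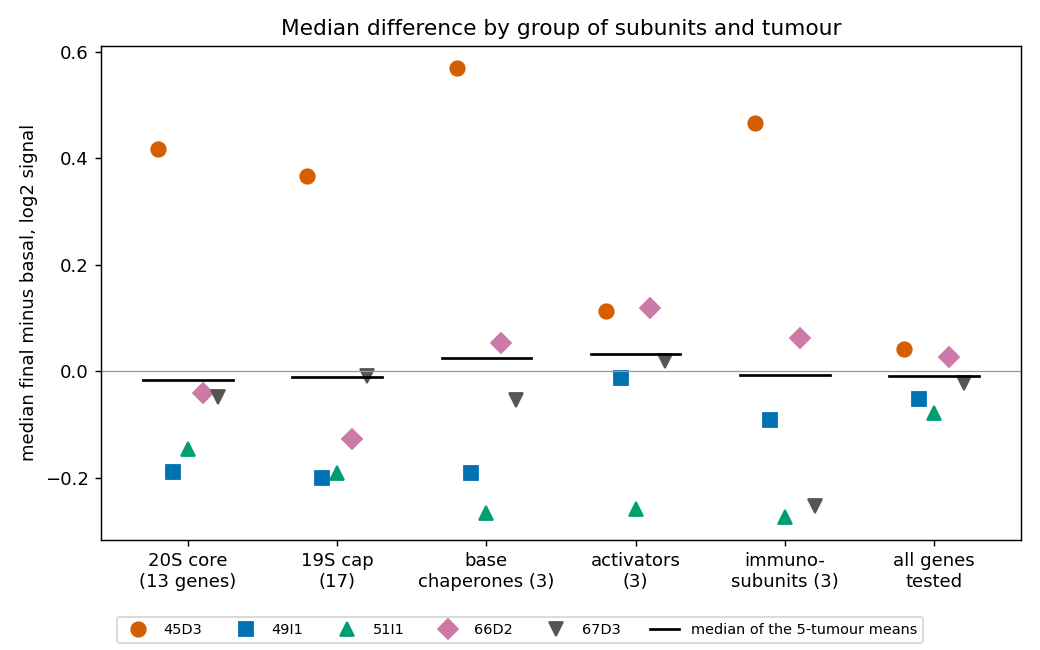
Median final minus basal log2 difference of each group of genes (columns) in each tumour (symbols), with the group's median over the 5-tumour means (black lines) and all 10839 genes at the right. Core and cap lie within 0.09 of each other in every tumour, from 0.42 and 0.37 in 45D3 to -0.19 and -0.20 in 49I1, while all genes stay between -0.08 and 0.04.

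The activators had no common direction. Psme1 and Psme2, both on rat chromosome 15, encode the alpha and beta subunits of the interferon-inducible activator ring that favours the making of antigen peptides. Psme1 had signals of 12.40, 12.37, 12.42, 12.28 and 12.15 in the final arrays, against 12.29, 12.38, 12.47, 12.16 and 12.16 in the basal arrays. It differed by 0.12 at most in any tumour, and its difference was 0.03 (SE 0.09, 95% interval -0.17 to 0.24, limma adjusted p = 0.937), and 0.01 without 45D3. Psme2 had signals of 11.46, 11.31, 11.30, 11.22 and 10.92 in the final arrays, against 10.89, 11.39, 11.56, 11.14 and 10.90 in the basal arrays. Its value for 45D3 was 0.57 and its other 4 lay between -0.26 and 0.08, so the pair did not move by the same amount in 45D3. The difference was 0.07 (SE 0.14, 95% interval -0.26 to 0.39, limma adjusted p = 0.912), and -0.06 without 45D3.

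Psme4 encodes a large single-chain activator known from the breakdown of histones in sperm formation in mice. Its signals were 10.16, 10.40, 10.11, 10.83 and 10.21 in the final arrays, against 10.26, 10.41, 10.54, 10.53 and 10.14 in the basal arrays. It was the member with the widest spread in final samples, since 66D2 alone stood at 10.83 while the other 4 lay between 10.11 and 10.40. It was 1 of the 2 members that were not higher in 45D3, the other being Psmd1. The difference was -0.04 (SE 0.12, 95% interval -0.33 to 0.26, limma adjusted p = 0.952), and -0.02 without 45D3. Its other probe sets differed by -0.10 and 0.19, so no direction is given for it. The Psme4 promoter holds a TGACNNNGC match on the opposite strand, 55 bases before the start.
Psme4, chr14:108706393-108706692, strand +: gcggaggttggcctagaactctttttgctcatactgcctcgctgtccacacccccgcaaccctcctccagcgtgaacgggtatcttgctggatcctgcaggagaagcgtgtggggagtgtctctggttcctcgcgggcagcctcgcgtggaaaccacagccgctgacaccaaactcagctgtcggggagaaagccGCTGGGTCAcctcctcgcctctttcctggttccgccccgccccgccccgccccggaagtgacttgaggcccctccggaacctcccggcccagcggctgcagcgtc

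The chaperones that bring the base together differed by 0.03 (Psmd5), 0.05 (Psmd9) and -0.12 (Psmd10). Psmd10 encodes gankyrin, an ankyrin-repeat protein known as an oncoprotein of liver cancer. Its signals were 9.80, 9.42, 9.49, 9.66 and 9.50 in the final arrays, against 9.72, 9.79, 9.75, 9.57 and 9.64 in the basal arrays. The final array of 45D3 was the highest of the 10 and the final array of 49I1 the lowest, and the groups overlapped. The difference was -0.12 (SE 0.11, 95% interval -0.38 to 0.14, limma adjusted p = 0.793), and -0.17 without 45D3. Of the genes kept out of the groups, Psmc3ip differed by -0.18 with an SD of 0.51 between biopsies, and Psme3ip1 by -0.06.

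**Figure D4:**
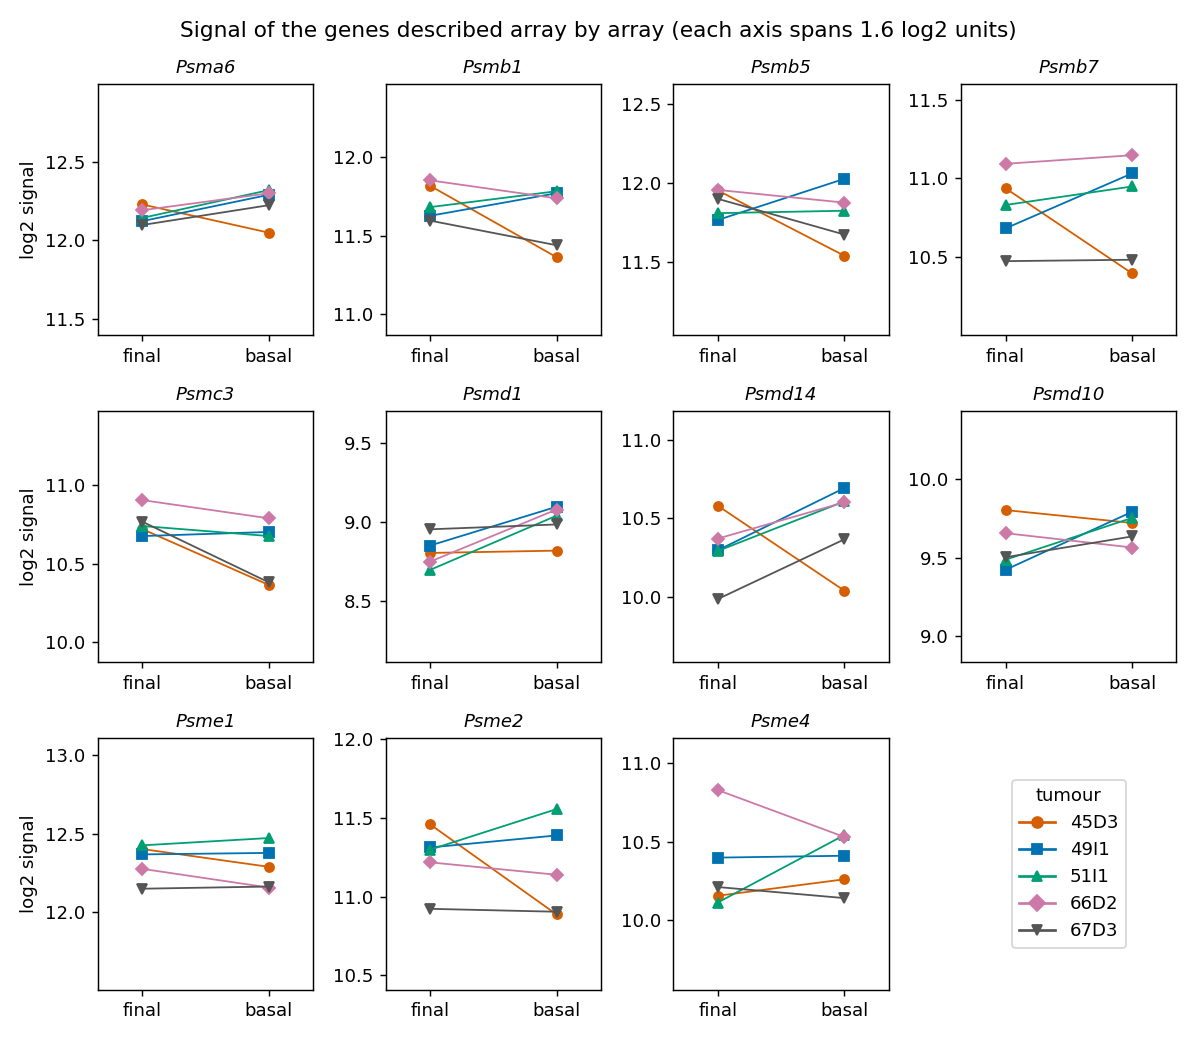
Log2 signal of 11 proteasome genes in the final and basal array of each tumour, joined by tumour, with every axis spanning the same range. The line of 45D3 climbs to the final side for 9 of the 11, all but Psmd1 and Psme4, and the final and basal signals overlap for each gene.

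For most members the spread between tumours was smaller in final than in basal samples. The median SD over the 5 tumours was 0.153 in final and 0.199 in basal arrays, beside 0.240 and 0.248 over all genes. The final SD was the smaller one for 29 of the 36 members (80.6%, where 50.9% of all genes had this order). Psmc4 had an SD of 0.04 in final and 0.18 in basal arrays, and Psmd2 of 0.04 and 0.19. Without 45D3 the median SD of the members was 0.131 in final and 0.156 in basal arrays, and 27 of the 36 had the smaller SD in final arrays (75%, where 48.9% of all genes did). The RNA controls had the same order. The SD of the hexokinase difference was 0.08 in final and 0.60 in basal arrays, and that of GAPDH 0.11 and 0.43. Without 45D3, 4 of the 8 lid genes had the smaller SD in final arrays, with medians of 0.150 in final and 0.140 in basal. Of 12 measured genes for ubiquitin and its delivery, 10 had the smaller SD in final arrays (83.3%, all 5 tumours). The difference in spread carries no test, and the part of RNA quality in it was not tested.

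**Figure D5:**
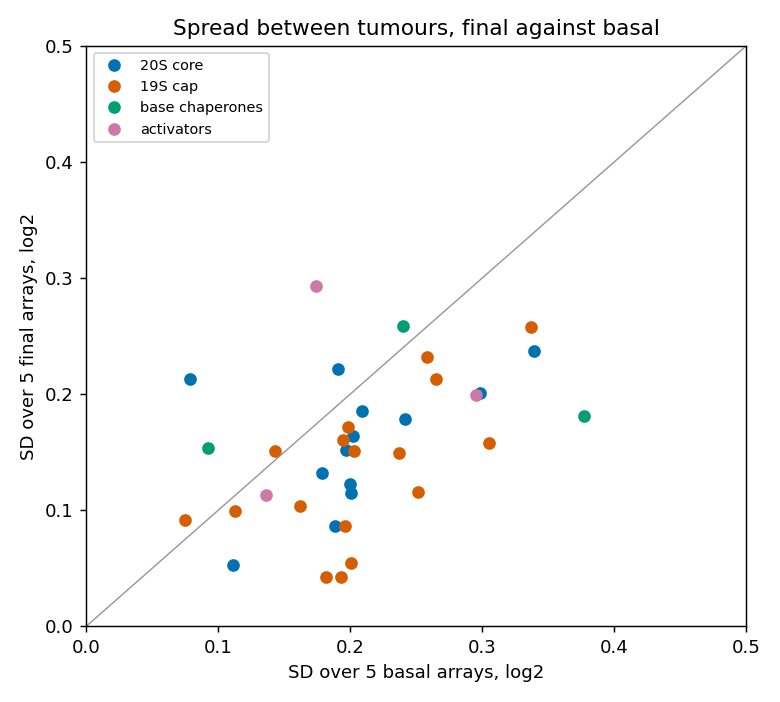
SD over the 5 final arrays (vertical) against SD over the 5 basal arrays (horizontal) for each of the 36 genes, on the log2 scale, coloured by part of the proteasome. Below the diagonal lie 29 of the 36 points, with the medians at 0.153 (final) and 0.199 (basal).

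The 3 immunoproteasome subunits, which replace the cutting subunits of the core after interferon, had their highest differences in 45D3, as each of the 13 core genes did. All 3 were below 0 in 49I1 and 51I1, and in 67D3 Psmb8 and Psmb9 were while Psmb10 was 0.31. Psmb8 differed by -0.06, Psmb9 by -0.01 and Psmb10 by 0.10, and their median was 0.47, -0.09, -0.27, 0.06 and -0.25 in the 5 tumours, beside 0.42, -0.19, -0.15, -0.04 and -0.05 for the core. Without 45D3 they differed by -0.19 (Psmb8), -0.15 (Psmb9) and 0.03 (Psmb10).

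Other genes of the pathway were read from lists. Of the particle's remaining subunits, assembly factors and inhibitor, 9 of 12 listed genes were measured, with a median difference of -0.02, 6 lower and 0 past the test (-0.10 without 45D3, with 8 lower). Among them Pomp, the maturation factor of the core, differed by -0.02, the paired assembly chaperones Psmg1 and Psmg2 by 0.00 and -0.12, and Adrm1, a ubiquitin receptor of the cap, by -0.09. The 7 regulators of the particle had a median of 0.12, with 2 lower and 0 past the test: Nfe2l1, the factor that raises subunit genes, differed by 0.13 and its activating protease Ddi2 by 0.20. Akirin2, which brings the particle into the nucleus, differed by 0.25, with 1.07 in 45D3 and a mean of 0.04 without it. Of 19 genes for ubiquitin and its delivery 12 were measured, with a median of -0.08, 8 lower and 0 past the test (-0.11 without 45D3, with 9 lower). Usp14, a deubiquitinase on the cap, differed by -0.16 (-0.26 without 45D3), Ubqln2, a shuttle that was lower in 5 of 5 tumours, by -0.13, and Sqstm1, the autophagy receptor p62, by 0.21. Of 7 genes that load or regulate class I molecules 6 were measured, all with a positive difference (median 0.14) and 0 past the test, from 0.03 for B2m, the light chain, to 0.29 for the interferon factor Irf1, where 52.1% of all genes had a negative one. Without 45D3 the median was 0.04 and Tap2, a subunit of the peptide transporter, was negative (-0.05). In 45D3 alone Tap2 differed by 1.05 and Tapbp, which tethers that transporter to class I molecules, by 0.94.

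Lists that mark other cells and growth moved in some of the same tumours. Proliferation genes differed by 0.61, -0.71, -0.29, -0.33 and -1.08 in the median of the 5 tumours, with 14 of 14 lower in the mean (list median -0.36, and -0.63 without 45D3) and 0 past the adjusted test, and the log2 of their summed signal was 11.81 to 13.75 in final and 12.57 to 14.06 in basal arrays. Their sign was that of the proteasome median in every tumour, though in 67D3 the proteasome median was only -0.02. Skeletal muscle markers, 8 of 9 measured, differed by 0.35, 2.36, 0.27, 4.45 and 6.82. The log2 of their summed signal was 10.77 to 15.03 in final and 10.44 to 11.42 in basal arrays. In basal arrays Ckm, Mb, Tnnt3, Tnnc2 and Actn3, 5 of the 8, had means under the dim cutoff. Myh1 alone averaged 10.49 in basal and 10.60 in final arrays, a difference of 0.11, so the basal sums rest largely on it. Collagen matrix genes (12 of 12 measured) differed by -0.84, 0.61, 0.57, 0.99 and 1.07, with a summed log2 signal of 14.24 to 16.27 in final and 14.44 to 15.49 in basal arrays. Adipocyte markers (6 of 8) differed by -0.81, 0.02, 2.71, 0.41 and 1.53, with sums of 10.66 to 12.79 in final and 10.29 to 11.50 in basal arrays. T and NK cell markers (9 of 10) differed by -0.87, 1.30, 1.26, 1.49 and -0.99, with sums of 9.49 to 12.01 in final and 8.99 to 11.20 in basal arrays. Adipoq and Prf1 had basal means under the dim cutoff, and 0 genes of these lists passed the adjusted test. Beyond the fit with the skeletal muscle covariate, the part of cell mixture in the proteasome values was not tested.

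Many members have copies in the genome: RefSeq names 40 pseudogenes for 16 of the 38, and a probe set for such a gene may also read transcripts of its copies, so those levels are uncertain. The 38 genes lie on 16 chromosomes, at most 6 of them on 1, chromosome 10.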

How the data were processed

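Mammary tumour RNA was hybridised to Affymetrix rat genome expression arrays, 1 array for each of 10 samples. Normalisation by the authors was Robust Multichip Average (RMA), as the submitters' processing notes and the design text state, with its version not given in the sources used here. From their range, the deposited values were taken to be log2 signals. Since RMA gives all arrays the same distribution of probe intensities before summary per probe set, total RNA per cell cannot be read from them.

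Of 31099 probe sets 57 were controls, and the dimmest 40% of the others by mean over the 10 arrays (under 5.14) were left out, which kept 18625 for 10839 genes. Symbols came from GEO's platform annotation: of 31042 probe sets 20826 had 1 symbol, 436 several and 9780 none. All columns of values were used. The fit was limma 3.58.1 (R 4.3.3, lmFit with eBayes, and statmod 1.5.0) with a term for each tumour, 4 residual and 2.64 prior degrees of freedom, and Benjamini-Hochberg adjustment over the 18625 probe sets at 0.05. It was tested on simulated data with planted differences much larger than those of the members, so differences of the members' size were not tested. The number of arrays limits the precision.

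The pairing comes from the labels, which give both samples of a tumour 1 identifier. Deviations from the group means correlated at -0.16, 0.29, 0.17, 0.72 and 0.47 in the 5 pairs across probe sets, and 4 of 5 final arrays matched their own biopsy best, all but that of 45D3.

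The members and lists were chosen with earlier results of these data known. Signals per array are given for Psmb5 and Psmb7, the activators and the member of smallest p in each class. They were also planned for each member at an unadjusted p under 0.05, and there was none. Members of the other lists are named without signals per array, and were picked after their values were seen. Class medians carry no test. Alternatives changed the block, the filter, the scaling, the probe set, the weights, the covariates and the tumours included. GAPDH scaling was added after the values were seen.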

Additional observations from a re-analysis of the deposited data

How the results depend on the processing

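Over 19 alternatives, 5 of them leaving out 1 tumour, 0 members passed limma's adjusted threshold in any. Members lower at an unadjusted p under 0.05 numbered 0 as reported, 1 with the tumour as a random block, 2 with array quality weights, 1 with the hexokinase covariate and 0 to 4 when each tumour was left out. Of all genes 4.36% were lower at that level as reported, 6.70% with the hexokinase covariate and 10.7% without 45D3. For the other fits that share was not counted, so their counts cannot be read as a trait of the members. Members lower in the fit numbered 20 as reported, 33 with the hexokinase covariate, 10 with the skeletal muscle covariate and 12 to 32 when each tumour was left out. Of all 10839 genes 5648 were lower as reported, 6031 with the hexokinase covariate and 5972 without 45D3, and other fits were not counted. With no replicate block, 0 members passed at the adjusted or the unadjusted threshold. The mean differences of this balanced design are the same with and without the block, so the 20 lower and the core median of -0.02 are not a check of it. Without 45D3 the core median was -0.11 and the cap median -0.11. Of 209 values of the 11 genes described array by array, 17 changed sign and 0 passed the threshold (lowest limma adjusted p = 0.178). The alternatives for the block, the paired t-test and the dim filter left these differences unchanged, so they could not change a sign. Nor could the choice of probe set for genes with 1 probe set above the dim cutoff. The 17 of 209 is therefore not a measure of stability. Psmb7 (0.0021 as reported) was -0.0159 after median centring, -0.0075 after quantile normalization, -0.0201 after GAPDH scaling, -0.0785 with array weights and -0.133 to 0.0901 without each tumour. Psme4 (-0.0354) was 0.0183 for the mean of its probe sets, 0.0297 with array weights and -0.12 to 0.0630 without each tumour. Psmd14 was 0.0001 for the mean of its probe sets, 0.18 for the one of smallest residual SD and 0.0490 given the muscle covariate. Under the hexokinase covariate Psmb7 was -0.22, Psme4 0.0058, Psmb5 -0.0829, Psme2 -0.114 and Psmb1 -0.0606, and Psme2 was -0.0592 to 0.15 without each tumour. The covariate fits spend 1 of 4 residual degrees of freedom, and the cause of these sign changes was not tested. Signal over background limits Psmc3ip, the member under BioB.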
